A study of Mus musculus with 10 samples.

Results

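The 10 genes studied here belong to the granule release machinery and were read on all 10 arrays of the series: the syntaxins Stx3, Stx4a and Stx11, Snap23, the vesicle proteins Vamp7 and Vamp8, Stxbp2 (Munc18-2), Unc13d (Munc13-4), and the small GTPases Rab27a and Rab27b. They were chosen by name, and each of the 10 had 1 probe set that carried its symbol alone, out of 19937 named genes on the array. Bone marrow (BM) cells of C57BL6/N mice, either wild type (B6) or with a constitutive deletion of Slpi (Slpi-/-), had been grown into 3 cell types. BM-derived basophils (BMBs) were grown with interleukin 3 and bead-selected as c-kit- DX5+ cells, mast cells were kept in interleukin 3 for weeks, and BM-derived eosinophils (BMEos) were grown with Flt3 ligand and stem cell factor and then interleukin 5. RNA was hybridized from unstimulated cells of each type and genotype, from BMBs sensitized for 1 h with anti-TNP-IgE and exposed to the antigen TNP-OVA for 12 h, and from BMEos treated with LPS for 3 h. Each condition had 1 array, and how many mice or cultures each represents is not given in the sources used here, so the p-values below do not cover the spread between cultures.

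Granules are released when SNARE proteins on the granule (VAMPs) and on the target membrane (syntaxins and SNAP23) zip into a bundle that pulls the membranes together. Munc18-type proteins hold and guide the syntaxin, Munc13-4 primes the granule, and Rab27 in its GTP-bound form brings the granule to the membrane by recruiting effectors such as the synaptotagmin-like proteins. Inherited loss of RAB27A, UNC13D, STX11 or STXBP2 in humans impairs the release of cytotoxic granules and leads to an inflammatory disorder, which is why these genes are also studied in basophils, mast cells and eosinophils.

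The labels of cell type were checked with Mcpt8, a basophil protease gene (log2 signal 12.72 to 13.29 in BMBs, at most 5.58 elsewhere), Cma1, a mast cell chymase gene (11.99 and 12.19 in mast cells), and Prg2, the gene of eosinophil major basic protein (12.02 to 12.35 in BMEos). Not every listed marker parted BMBs from mast cells. The basophil marker Fcer1a had 10.90 to 11.47 in BMBs and 12.16 and 12.24 in mast cells. The mast cell marker Cpa3 had 12.72 to 12.94 in BMBs and 13.11 on both mast cell arrays. Tpsab1 was as low in mast cells (4.81 and 5.14) as in BMBs (4.76 to 5.14). The 5 basophil markers summed to 57.4 to 58.3 in BMBs and 39.0 and 38.3 in mast cells. The 6 mast cell markers summed to 44.0 to 46.1 in BMBs and 59.7 and 61.8 in mast cells. Slpi was lower in Slpi-/- than in B6 cells in the BMB pairs (6.55 against 11.42, and 6.35 against 11.33 with IgE) and in the BMEos pairs (6.41 against 8.08, and 5.93 against 7.96 with LPS). Slpi was alike in B6 and Slpi-/- mast cells (6.53 and 6.47), so that it checked neither label. A gene was taken as above background on an array when it exceeded the 95th percentile of olfactory receptor genes there, which lay between 5.56 and 5.78. Of the 10 members, 9 were above background on all 10 arrays, and Rab27b was above it on the 6 BMB and mast cell arrays and below it on the 4 BMEos arrays. Because different probe sets bind with different strength, signals were compared between arrays for 1 gene and never between genes.

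**Figure D1:**
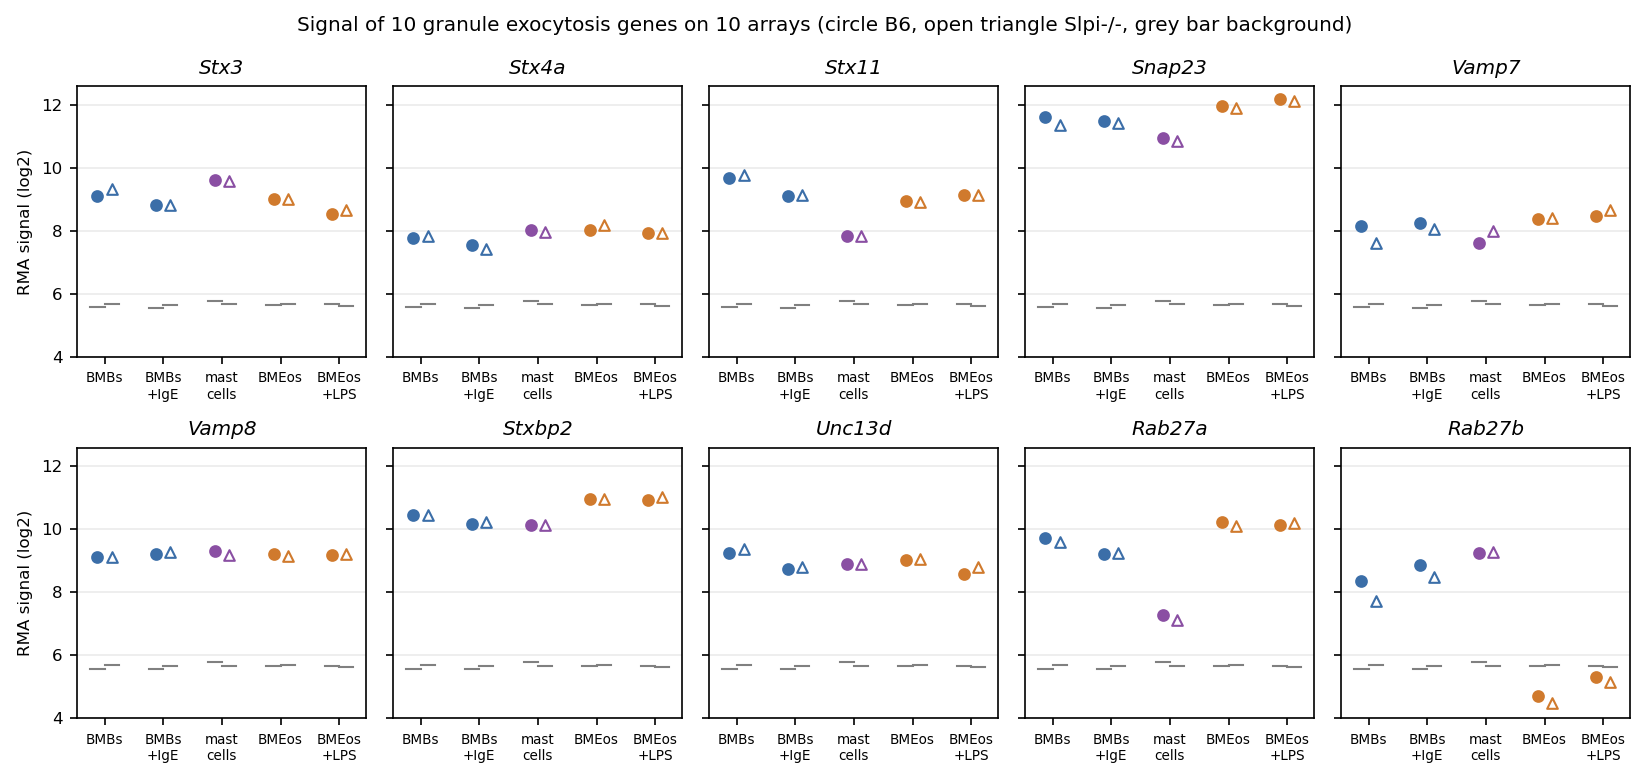
RMA signal on the log2 scale (y axis) of the 10 genes, 1 panel a gene, in the 5 settings of cell type and stimulus (x axis); filled circles are B6 arrays, open triangles are Slpi-/- arrays, and the short grey bars mark the background of each array. Rab27a is low in mast cells (7.30 and 7.13), Rab27b is below background in BMEos, and Vamp8 stays between 9.11 and 9.30.

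The members differed mainly by cell type, and the largest differences were those of the pair of Rab27 genes. Rab27a, whose product docks granules at the membrane, had signals of 9.71 (B6) and 9.59 (Slpi-/-) in unstimulated BMBs, 7.30 and 7.13 in mast cells, and 10.23 and 10.12 in BMEos. The mast cell arrays were the lowest of the 10 for Rab27a, and the 4 BMEos arrays (10.12 to 10.23) were above all others. Rab27b, which encodes the closest relative of that protein, ran the other way. BMBs gave 8.35 and 7.74 for Rab27b, mast cells 9.24 and 9.27, and BMEos 4.70 and 4.48, which is not above background. Over the 10 arrays Rab27b spanned 4.79 and Rab27a 3.11 on the log2 scale, the widest ranges among the 10 members, whereas Vamp8 spanned 0.20.

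In a limma model of cell type and genotype over the 6 unstimulated arrays, Rab27a was higher in BMBs than in mast cells by 2.44 (SE 0.09, 5.43-fold, adjusted p = 4.2e-06) and higher in BMEos than in mast cells by 2.97 (SE 0.09, 7.81-fold, adjusted p = 9.46e-07). Rab27b was lower in BMBs than in mast cells, with a difference of -1.21 (SE 0.15, adjusted p = 0.00102). For BMEos the fitted difference of Rab27b from mast cells was -4.66 (SE 0.15, adjusted p = 1.2e-06), and since BMEos gave only background, mast cells (mean 9.25) were at least 12.0-fold higher, and BMBs (mean 8.05) at least 5.21-fold higher, than the background of the unstimulated BMEos arrays (mean 5.66). BMEos also exceeded BMBs in Rab27a, by 0.52 (SE 0.09, adjusted p = 0.0044). These Rab27a and Rab27b calls held when each of the 6 arrays was left out in turn.

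Stx11, a syntaxin of cytotoxic granule release, had the next widest range over the 10 arrays, 1.91 on the log2 scale. On the unstimulated arrays BMBs gave 9.68 and 9.76 for Stx11, both mast cell arrays 7.85, and BMEos 8.95 and 8.93. With the stimulated arrays included, BMBs (9.12 to 9.76) and BMEos (8.93 to 9.14) overlapped. On the unstimulated arrays alone the 3 cell types did not overlap. How many of all genes tested were separated in this way was not counted. BMBs were above mast cells by 1.87 (SE 0.10, 3.66-fold, adjusted p = 1.38e-05) and BMEos by 1.09 (SE 0.10, 2.13-fold, adjusted p = 9.17e-05), and BMEos were below BMBs, with a difference of -0.78 (SE 0.10, adjusted p = 0.000774).

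Stx11 and Rab27a were both lower in mast cells than in the other cell types, and the 250 bases before their annotated starts are given, from the RefSeq promoter table (GRCm38.p6). Snap23 and Stxbp2, described below, were lower in mast cells too, by smaller differences. Their windows are not printed, and their matches are among those counted below. The capitals mark matches, on either strand, to GATAA or GATAG (GATA factors), CACGTG or CATGTG (E-boxes of the MITF type), TTNNGCAA (C/EBP), TGANTCA (AP-1) and GAGGAAG (PU.1).
Stx11, chr10:12964260-12964509, minus strand: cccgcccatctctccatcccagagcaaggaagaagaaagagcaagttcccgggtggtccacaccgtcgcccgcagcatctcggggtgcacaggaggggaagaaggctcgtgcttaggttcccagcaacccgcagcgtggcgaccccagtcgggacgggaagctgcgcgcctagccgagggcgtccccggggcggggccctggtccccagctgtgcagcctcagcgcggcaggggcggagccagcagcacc
Rab27a first start, chr9:73044560-73044809, plus strand: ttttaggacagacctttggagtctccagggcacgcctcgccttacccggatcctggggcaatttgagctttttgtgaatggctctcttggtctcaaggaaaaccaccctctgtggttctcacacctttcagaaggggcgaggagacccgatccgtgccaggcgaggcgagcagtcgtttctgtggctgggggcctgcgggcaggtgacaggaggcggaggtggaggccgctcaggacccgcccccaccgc
Rab27a second start, chr9:73063898-73064147, plus strand: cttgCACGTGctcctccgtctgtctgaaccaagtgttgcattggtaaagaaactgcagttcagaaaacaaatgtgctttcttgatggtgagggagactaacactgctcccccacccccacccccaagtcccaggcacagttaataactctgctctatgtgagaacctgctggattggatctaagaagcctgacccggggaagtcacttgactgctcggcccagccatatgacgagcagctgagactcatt
The Stx11 window had a GC content of 70.0% and none of these letters, nor had the first Rab27a window (62.0% GC). The second Rab27a window (51.6% GC) held 1 CACGTG, which begins at position -246 from the start. Among all 32851 promoter windows of the table, 17.6% held such an E-box, 37.5% a GATA match, 9.56% a C/EBP match, 6.75% an AP-1 match and 10.6% a PU.1 match. Of the 8 windows found for 7 members, 3 held a GATA match (Snap23, Vamp8 and Stx3), 2 an E-box (Stxbp2 and Rab27a) and 2 a C/EBP match, and 0 held an AP-1 or PU.1 match. These matches describe letters only, and no binding was measured.

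Snap23 and Stxbp2 followed the order of Rab27a. Snap23, the SNARE that takes the place of neuronal SNAP25 outside the nervous system, had signals of 11.63 and 11.38 in BMBs, 10.96 and 10.84 in mast cells, and 11.96 and 11.89 in BMEos. Stxbp2, which binds the syntaxins of granule release, had signals of 10.47 on both BMB arrays, 10.14 on both mast cell arrays and 10.96 on both BMEos arrays. The cell types did not overlap for either gene, a separation that was not counted over all genes tested. Relative to mast cells, Snap23 was higher by 0.60 in BMBs (SE 0.10, limma adjusted p = 0.00349) and by 1.02 in BMEos (SE 0.10, adjusted p = 0.000163). Stxbp2 was higher by 0.33 in BMBs (SE 0.09, adjusted p = 0.0304) and by 0.82 in BMEos (SE 0.09, adjusted p = 0.000344). BMEos exceeded BMBs by 0.43 for Snap23 (adjusted p = 0.0139) and by 0.49 for Stxbp2 (adjusted p = 0.00564).

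Stx3, a syntaxin that pairs with SNAP23 on granule and plasma membranes, was highest in mast cells. Mast cells gave 9.62 and 9.58 for Stx3, against 9.12 and 9.33 in BMBs and 9.01 on both BMEos arrays. The difference was -0.38 for BMBs (SE 0.11, limma adjusted p = 0.032) and -0.59 for BMEos (SE 0.11, adjusted p = 0.00333). Unc13d, the priming factor, had signals of 9.24 and 9.36 in BMBs, 8.89 and 8.90 in mast cells, and 9.02 and 9.05 in BMEos. For Unc13d the difference between BMBs and mast cells passed (0.41, SE 0.10, adjusted p = 0.0156), and it was lost without the Slpi-/- BMB array or either mast cell array (0.0631 to 0.0984). Unc13d in BMEos against BMBs (-0.26, adjusted p = 0.0681) passed under 4 alternatives: quantile normalization (0.0367), the 99th percentile filter (0.0460), a variance trend (0.0325) and all 10 arrays (0.0427).

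Of the vesicle SNAREs, Vamp8 spanned 0.20 and Vamp7 1.05 over the 10 arrays. Vamp8, a VAMP of secretory granules, had 9.12 and 9.11 in BMBs, 9.30 and 9.19 in mast cells, and 9.23 and 9.15 in BMEos, and its 95% intervals against mast cells ran from -0.36 to 0.09 for BMBs and from -0.28 to 0.17 for BMEos. Vamp7, an X-linked VAMP of lysosomes and secretory granules, had 8.14 and 7.60 in BMBs, 7.63 and 7.98 in mast cells, and 8.36 and 8.41 in BMEos. The B6 and Slpi-/- arrays of BMBs and of mast cells were spread by more than the means of those cell types differed. In BMEos against BMBs the Vamp7 difference was 0.51 (95% interval 0.04 to 0.99, limma adjusted p = 0.0832), and it ran from 0.14 to 0.88 under the alternatives. Vamp7 passed only in BMEos against mast cells (0.58, SE 0.20, limma adjusted p = 0.0458). That call was lost without the B6 mast cell array (0.28, adjusted p = 0.312) or either BMEos array (adjusted p = 0.105 and 0.192). Stx4a, the plasma membrane syntaxin of regulated secretion, had 7.79 and 7.85 in BMBs, 8.01 and 7.97 in mast cells and 8.02 and 8.17 in BMEos. Its difference between BMEos and BMBs was 0.28 (95% interval 0.04 to 0.51), with an adjusted p of 0.0675.

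In counts, 5 of the 10 members were higher and 2 lower in BMBs than in mast cells, where limma called 18.8% of the 12998 genes tested higher and 17.9% lower. In BMEos against mast cells 5 members were higher and 2 lower (24.3% and 26.8% of genes), and in BMEos against BMBs 3 were higher and 2 lower (18.6% and 21.2% of genes). Rab27b was 1 of the lower members in both comparisons of BMEos. It entered the test through the BMB and mast cell arrays alone, so its call in BMEos could only be lower and says nothing about direction. The median difference of the members was 0.20 for BMBs and 0.36 for BMEos against mast cells, where the medians of all genes tested were -0.01 and -0.04. The first and second comparisons share the mast cell arrays, and the genes were chosen with earlier results of these data known. Without the B6 or without the Slpi-/- mast cell array, 4 members passed in BMBs against mast cells (Rab27a, Rab27b, Stx11 and Snap23), and the calls of Stx3 and Stxbp2 were also lost without the B6 BMB array, where 5 members passed. The Stxbp2 call was lost without any 1 of the 6 arrays (adjusted p 0.0601 to 0.138), and that of Stx3 without any but the Slpi-/- BMB array (0.0540 to 0.202). Without the Slpi-/- BMEos array, BMEos against BMBs kept 3 members (Rab27a, Rab27b and Stx11), and Snap23 was also lost without the Slpi-/- BMB or the B6 BMEos array (adjusted p = 0.0857 and 0.0556).

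Signals of genes listed as markers of other cells differed between the cell types too. Of the 6 platelet and megakaryocyte marker genes measured, 6 were above background on each BMB array (summed log2 signal 49.9 to 57.3), 4 on the mast cell arrays (43.0 to 44.2) and 5 or 6 on the BMEos arrays (43.6 to 47.5). Pf4, a platelet chemokine gene, had 9.88 and 10.16 in unstimulated BMBs and was not above background in mast cells (4.82 and 5.21). Other genes of that list ran the other way: Itga2b had 10.98 and 10.87 in unstimulated BMBs and 11.47 and 11.55 in mast cells, and Gp5 had 7.76 and 7.84 against 8.83 and 8.75. Neutrophil marker genes gave 7 or 8 of 9 above background in BMEos (summed signal 65.1 to 67.5), 2 to 6 in BMBs (51.6 to 62.8) and 0 or 2 in mast cells (46.9 to 47.5), and Mpo and Elane had their highest signals on the B6 unstimulated BMB array (8.84 and 7.14). Of 7 macrophage marker genes 4 were above background on each BMB array (summed signal 44.9 to 48.2), 0 or 1 on the mast cell arrays (35.5 to 36.1) and 3 or 4 on the BMEos arrays (47.9 to 50.1). Adgre1 had the highest signals of that list in BMEos (12.09 to 12.55) and in BMBs (10.82 to 11.88), against 4.01 and 4.80 in mast cells. C1qa, C1qc and Marco stayed at 5.97 or below on every array. Whether such signals came from other cells or from the named cell types was not tested. Platelets, neutrophils and macrophages also use several of these exocytosis genes, and the part of such cells in the differences above was not tested. In bulk RNA a change in the share of a cell type and a change in RNA per cell cannot be told apart.

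**Figure D2:**
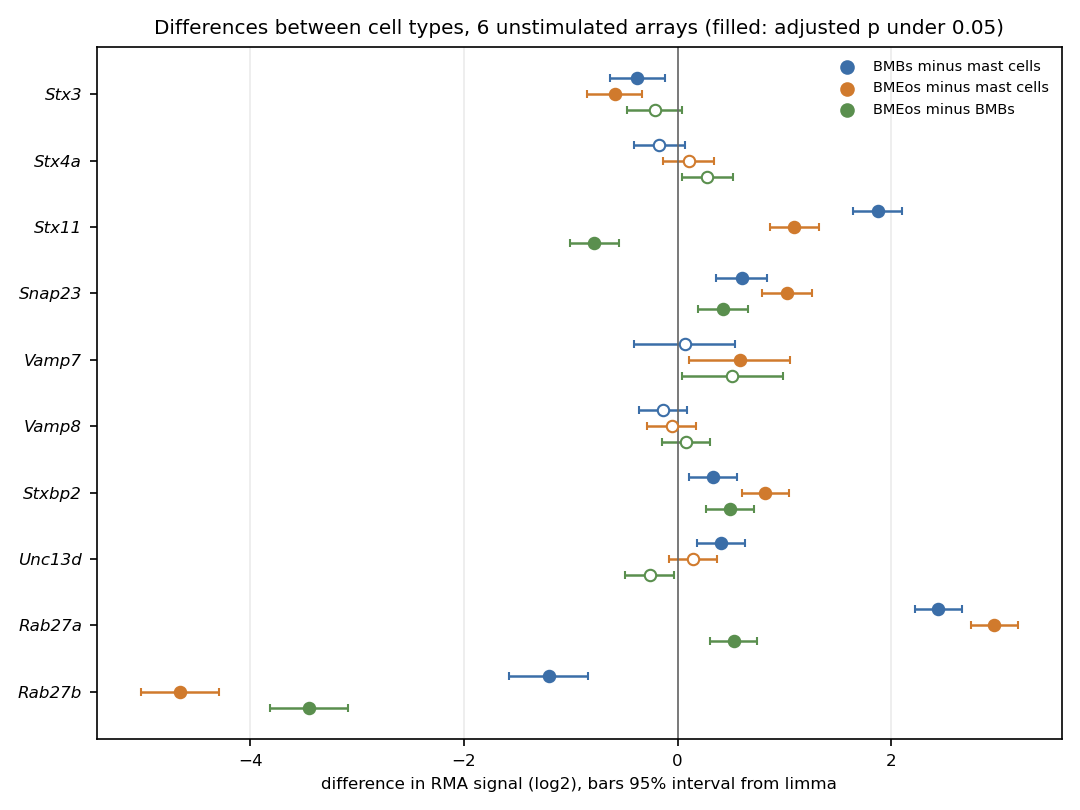
Difference in log2 signal (x axis) of each member (y axis) between cell types in the limma fit of the 6 unstimulated arrays, with its 95% interval; filled points passed at an adjusted p under 0.05. Rab27a lies far right against mast cells (2.44 and 2.97), Rab27b far left (-1.21 and -4.66, the second against BMEos arrays below background), and Vamp8 stays near 0.

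Other genes that act beside the members were counted from lists of known function. The shares of all genes tested to set beside the list counts were 18.8% higher and 17.9% lower in BMBs than in mast cells. For BMEos against mast cells they were 24.3% and 26.8%. Among 24 tested genes for secretory Rab proteins and Rab effectors, 7 were higher and 5 lower in BMBs than in mast cells, and 8 were higher and 8 lower in BMEos than in mast cells. Sytl1, a Rab27 effector, was the highest of them in both comparisons (1.58, SE 0.12, limma adjusted p = 6.97e-05 in BMBs, and 1.92, SE 0.12, adjusted p = 1.53e-05 in BMEos). Mlph, a Rab27a effector that links melanosomes to myosin, was the lowest in BMBs (-2.84, SE 0.17, adjusted p = 3.27e-05), with signals of 9.07 and 8.57 in mast cells against 5.84 to 6.19 on the other 8 arrays. Rab38, a Rab of lysosome-related organelles, had 10.19 and 10.28 in mast cells, 8.12 to 8.55 in BMBs and 5.07 to 5.52, below background, in BMEos. Mast cells were at least 23.8-fold higher in Rab38 than the background of the unstimulated BMEos arrays (fitted adjusted p = 1.81e-07). Like Rab27b, the effector genes Sytl2 and Sytl3 were not above the background of the unstimulated BMEos arrays (4.67 and 4.42, and 5.44 and 4.27), whereas BMBs gave 8.26 and 8.25 for Sytl2 and 8.85 and 8.89 for Sytl3. The Sytl2 and Sytl3 values were picked out after they had been seen. Among the unstimulated arrays, Rab38, Sytl2 and Sytl3 were above background in BMBs and mast cells alone. A call of these genes in BMEos could therefore only be lower.

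**Figure D3:**
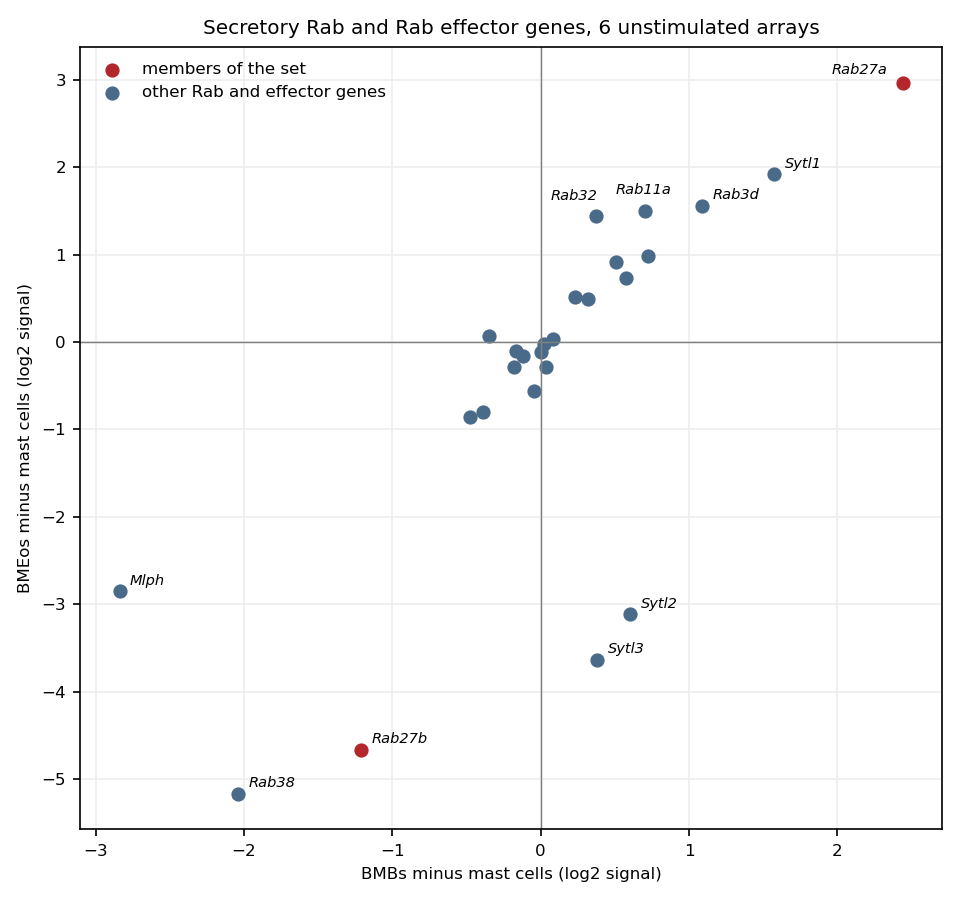
Difference in log2 signal of Rab27a, Rab27b and the 24 other Rab and Rab effector genes tested, BMBs minus mast cells on the x axis and BMEos minus mast cells on the y axis; both axes share the mast cell arrays. Rab27a lies at the top right (2.44 and 2.97) beyond Sytl1, and Rab27b lies at the bottom beside Rab38, with Sytl2 and Sytl3 below 0 on the y axis alone. Rab27b, Rab38, Sytl2 and Sytl3 were below background in unstimulated BMEos, so their y values are not exact.

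Of 26 other SNARE genes tested, 3 were higher and 3 lower in BMBs than in mast cells, and 9 were higher and 5 lower in BMEos. Vamp4, a VAMP of the Golgi, was the highest in both (1.09, limma adjusted p = 0.000255, and 1.55, adjusted p = 2.6e-05), Bet1l the lowest in BMBs (-0.61, adjusted p = 0.00338) and Vamp5 the lowest in BMEos (-0.72, adjusted p = 0.0053). Of 17 docking, priming and disassembly genes, 1 was higher and 4 lower in BMBs, and 4 were higher and 4 lower in BMEos. Stxbp3, a paralogue of Stxbp2, was the highest in BMBs (0.45, adjusted p = 0.0153) and in BMEos (1.46, adjusted p = 3.56e-05). Stxbp5, a syntaxin-binding protein named tomosyn, was the lowest in BMBs (-1.58, adjusted p = 3.21e-05). Unc13b, a paralogue of Unc13d, had 7.31 and 7.06 in mast cells against 5.23 and 5.13, below background, in unstimulated BMEos, so that mast cells were at least 2.87-fold higher (fitted adjusted p = 1.5e-05). Among the unstimulated arrays Unc13b was above background in BMBs and mast cells alone, so its call in BMEos could only be lower.

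Of 10 exocyst genes, whose products tether vesicles, 3 were higher and 3 lower in BMBs, and 4 were higher and 2 lower in BMEos, with Exoc2 (0.50, limma adjusted p = 0.00612) and Exoc3 (-0.86, adjusted p = 0.000863) at the ends in BMBs, and Exoc6 (1.11, adjusted p = 9.17e-05) and Exoc4 (-0.62, adjusted p = 0.00135) in BMEos. Of 20 genes of lysosome-related organelles, 7 were higher and 2 lower in BMBs, and 8 were higher and 4 lower in BMEos. Lyst, the gene mutated in Chediak-Higashi syndrome with its giant granules, was the highest in BMBs (2.08, adjusted p = 3.55e-05) and Bloc1s2 in BMEos (2.05, adjusted p = 7.28e-06), while Dtnbp1 (-0.68, adjusted p = 0.00148) and Hps4 (-1.09, adjusted p = 0.000114) were the lowest. Of 20 synaptotagmin and Doc2 genes 8 were tested, since most were at background. In BMBs 2 of the 8 were higher and 2 lower. Syt13 was the highest (0.96, adjusted p = 0.00162), and Syt9 was at least 1.72-fold higher in mast cells (mean 6.41) than in BMBs, where it was not above background (fitted adjusted p = 0.000286). In BMEos 0 of the 8 were higher and 3 lower. Among the unstimulated arrays, Syt5 and Syt9 were above background in mast cells alone, which let them into the test. A call of either gene against mast cells could therefore only be lower, and the counts of lower genes say nothing about direction for them. Syt5 was not above background in BMEos, and mast cells (mean 6.32) were at least 1.58-fold higher (fitted adjusted p = 0.00366). Syt11 had 6.71 and 6.60 in mast cells and 5.73 and 5.57 in BMEos, the latter not above background (adjusted p = 0.000212).

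After IgE and antigen in BMBs, 4 members fell and 1 rose. Stx11 had 9.68 and 9.76 without and 9.12 and 9.15 with stimulation (B6 and Slpi-/-), a change of -0.59 (SE 0.09, limma adjusted p = 0.00687). Unc13d had 9.24 and 9.36 without and 8.73 and 8.82 with it (-0.52, SE 0.10, adjusted p = 0.0122). Rab27a had 9.71 and 9.59 without and 9.23 and 9.25 with it (-0.41, SE 0.10, adjusted p = 0.0298). For each of these 3 genes both stimulated arrays lay below both unstimulated ones, and the same held for Stx3. Stx3 had 9.12 and 9.33 without and 8.82 and 8.83 with stimulation (-0.40, SE 0.10, adjusted p = 0.0357). Rab27b rose instead, from 8.35 to 8.86 in B6 and from 7.74 to 8.48 in Slpi-/- cells (0.63, SE 0.10, 1.54-fold, adjusted p = 0.00792). Rab27b was higher in both pairs, and both stimulated arrays were above both unstimulated ones. How many of all genes tested were separated in this way was not counted. Vamp8, which did not pass (limma adjusted p = 0.363), was separated too, at 9.21 and 9.29 against 9.12 and 9.11.

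The remaining 5 members did not pass. Stx4a had 7.56 and 7.43 with stimulation (-0.33, SE 0.10, adjusted p = 0.0649) and Stxbp2 10.17 and 10.25 (-0.26, SE 0.09, adjusted p = 0.0999), each lower than both unstimulated arrays. Vamp7 had 8.25 and 8.07, Vamp8 9.21 and 9.29, and Snap23 11.48 and 11.42, with 95% intervals of 0.00 to 0.57, -0.09 to 0.37 and -0.29 to 0.19. Among all 13571 genes tested, 12.2% were called higher and 10.6% lower with IgE and antigen. The median change of the members was -0.29, against -0.02 for all genes tested. Each of these differences rests on the 4 BMB arrays, while the spread was estimated from the fit of all 10 arrays. With the 4 BMB arrays alone Stx3 did not pass (limma adjusted p = 0.0566). Without the Slpi-/- unstimulated array or without the Slpi-/- stimulated array 0 members passed, with adjusted p-values of 0.0620 and 0.0619 for Stx11 and of 0.0794 and 0.0792 for Rab27b. Without the B6 unstimulated or without the B6 stimulated array 2 passed, Stx11 and Rab27b, and the call of Stx3 was also lost without any 1 of the 4 BMEos arrays (adjusted p 0.0549 to 0.0565). Without a filter on signal 3 members passed, and Stx3 (adjusted p = 0.0698) and Rab27a (0.0599) did not.

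Markers of the stimulus and of other cells differed between BMB arrays with and without IgE and antigen. Il6, a cytokine gene, had 9.09 and 8.81 without and 11.26 and 11.61 with stimulation. Ly6g, of the neutrophil list, had 12.38 and 12.68 without and 10.95 and 11.15 with it (-1.48, limma adjusted p = 0.000822). Not every gene of that list fell in both pairs. Camp went from 5.47 to 5.64 in B6 cells. In Slpi-/- cells S100a8 went from 3.84 to 4.04 and S100a9 from 4.95 to 5.22 with stimulation. These signals were near or below background. The summed signal of the 9 neutrophil markers was 62.8 and 55.0 without and 51.6 and 52.0 with it, with 6 and 4 genes above background without and 3 and 2 with it. That of the 6 platelet markers was 55.8 on both arrays without stimulation. With it the sum was lower in B6 (49.9) and higher in Slpi-/- cells (57.3), all 6 above background. The part of these differences in the members' changes was not tested.

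Among the other lists, Lyst changed most of the lysosome-related organelle genes with IgE (-1.26, SE 0.13, limma adjusted p = 0.00198), with 1 of 21 higher (Ap3m1, 0.51, adjusted p = 0.0163) and 3 lower. The shares called over all genes tested with IgE and antigen were 12.2% higher and 10.6% lower. Of 24 Rab and effector genes 0 were higher and 6 lower, from Rab3ip (-0.38, adjusted p = 0.0344) to Sytl1 (-0.74, adjusted p = 0.00423), while 7 had an unadjusted p under 0.05. Of 17 docking, priming and disassembly genes 4 were higher and 0 lower, from Unc13b (0.35, adjusted p = 0.0479) to Nsf, the ATPase that takes used SNARE bundles apart (0.80, adjusted p = 0.0166). Of 26 other SNARE genes 4 were higher and 2 lower, from Ykt6 (0.60, adjusted p = 0.0243) to Use1 (-1.16, adjusted p = 0.00125). Of 10 exocyst genes 1 was higher (Exoc5, 0.48, adjusted p = 0.0172) and 1 lower (Exoc6b, -0.40, adjusted p = 0.0281), and of 10 synaptotagmin and Doc2 genes 1 was higher (Syt5, at least 1.19-fold, since it was not above background without stimulation, fitted adjusted p = 0.0406) and 1 lower (Syt11, -0.67, adjusted p = 0.00916).

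With LPS in BMEos, Stx3 and Unc13d fell. Stx3 had 9.01 on both arrays without and 8.53 and 8.65 with LPS (-0.42, SE 0.10, limma adjusted p = 0.026). Unc13d had 9.02 and 9.05 without and 8.60 and 8.79 with LPS (-0.34, SE 0.10, adjusted p = 0.0411). Both LPS arrays lay below both unstimulated arrays for both genes, a separation that was not counted over all genes tested. Rab27b also passed the test (adjusted p = 0.00565), but its signals of 4.70 and 4.48 without and 5.32 and 5.16 with LPS were all below background, so no fold is given. Rab27a, at 10.13 and 10.19 with LPS, differed by -0.02 (95% interval -0.26 to 0.22), and Stxbp2, at 10.94 and 11.02, by 0.02 (-0.20 to 0.25). Stx11 had 9.14 and 9.13 and Snap23 12.18 and 12.14 with LPS, each above both unstimulated arrays, with adjusted p-values of 0.159 and 0.124. Vamp7 had 8.46 and 8.66, Vamp8 9.19 and 9.22, and Stx4a 7.92 and 7.94, and none of these 3 passed.

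Over all 13571 genes tested, 12.7% were called higher and 16.2% lower with LPS. Higher genes made up 43.9% of the calls, and 30.4% when each array was centred on its median, where Stx3 and Unc13d passed again. The summed signal of the 6 platelet markers was 43.6 and 44.2 without and 47.5 and 46.1 with LPS, with 5 and 6 of them above background without and 6 on both arrays with it. That of the 7 macrophage markers was 48.0 and 47.9 without and 50.1 and 49.9 with LPS (3 above background without and 4 with it), and that of the 9 neutrophil markers 66.9 and 67.5 without and 65.1 and 66.0 with it (7 and 8 above background without and 7 with it). The part of these markers' cells in the members' changes was not tested. The LPS arrays also differed in genes that mark the sex of the cells. Xist, which is transcribed from the inactive X chromosome, had 9.72 and 9.66 with LPS and 4.15 and 4.90 without, and the Y-linked genes Eif2s3y, Kdm5d and Uty had 3.22 to 5.48 with LPS and 7.44 to 8.45 without. LPS and the sex of the mice behind the cultures therefore cannot be told apart for any member. Without any 1 of the 4 BMEos arrays the calls of Stx3 and Unc13d were lost, and with Rab27b set aside as below background, 0 members passed then. The call of Unc13d was also lost without any 1 of the 4 BMB arrays (adjusted p 0.0503 to 0.0505). Under quantile normalization Snap23 passed (0.37, adjusted p = 0.0312), and Stx3 (0.0529) and Unc13d (0.0714) did not.

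**Figure D4:**
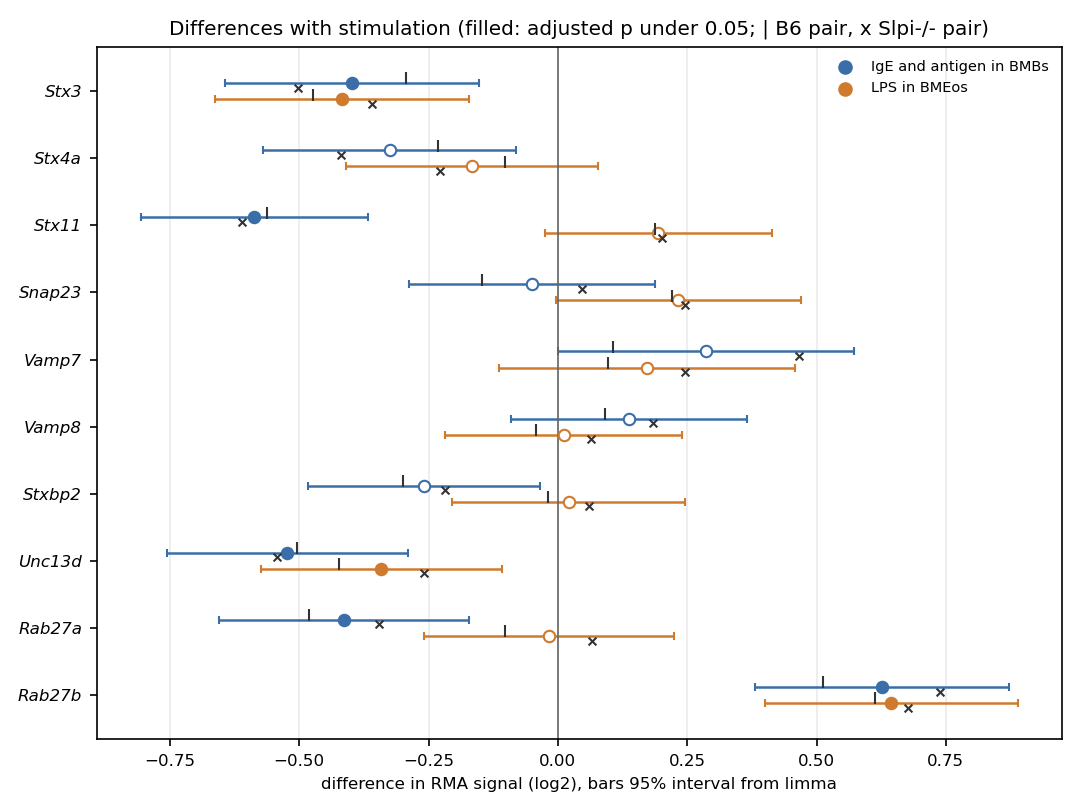
Difference in log2 signal (x axis) of each member (y axis) with IgE and antigen in BMBs and with LPS in BMEos, from the limma fit of the 10 arrays, with 95% intervals; filled points passed at an adjusted p under 0.05, and the small marks show the B6 and the Slpi-/- pair. Stx11 lies at -0.59 with IgE and at 0.19 with LPS, and the LPS value of Rab27b compares signals below background.

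The change with LPS in BMEos was set against the change with IgE and antigen in BMBs, which differ in cell type, agent and time. The LPS change also carries the difference in sex-linked genes given above, which the BMB arrays did not show (Xist 4.04 to 4.46). The 2 cannot be told apart here. Of the 10 members 1 differed, Stx11, with a difference of 0.78 between its 2 changes (SE 0.13, limma adjusted p = 0.00888), where 9.71% of genes were called higher and 13.3% lower. Rab27a differed by 0.40 (adjusted p = 0.0913). For Unc13d, which passed in both cell types, the difference was 0.18 (95% interval -0.15 to 0.51), and for Stx3 it was -0.02 (-0.37 to 0.33).

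Among the other lists, 4 of 24 Rab and effector genes were higher and 6 lower with LPS, where 12.7% of all genes tested were called higher and 16.2% lower. They ran from Rims3 (0.72, limma adjusted p = 0.00324) to Rab3d, a Rab of secretory granules (-0.92, SE 0.10, adjusted p = 0.00142). Of 26 other SNARE genes 3 were higher and 3 lower, from Stx6 (0.71, adjusted p = 0.00699) to Vamp4 (-1.08, SE 0.12, adjusted p = 0.00157). The 17 docking, priming and disassembly genes had 0 higher and 1 lower (Unc13c, -0.59, adjusted p = 0.0151, with signals of 5.33 to 6.16 in BMEos, close to background). The 10 exocyst genes had 0 higher and 3 lower, from Exoc2 (-0.36, adjusted p = 0.0317) to Exoc6 (-0.41, adjusted p = 0.0186). The 10 synaptotagmin and Doc2 genes tested had 1 higher (Syt6, 0.33, adjusted p = 0.0479) and 0 lower. The 21 lysosome-related organelle genes had 1 higher (Bloc1s4, adjusted p = 0.0286, with signals of 5.18 to 5.64 in BMEos that were not above background on 3 of the 4 arrays, so that no difference is given) and 5 lower, down to Bloc1s3 (-0.59, adjusted p = 0.0116).

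No difference of a member between Slpi genotypes passed the test. In the limma fits 0 of the 10 members passed for genotype in BMBs, in BMEos, for the difference between those effects or over the 5 settings, and the share of all genes called was 0.00737% in each of the first 3 comparisons (1 gene, Slpi itself) and 0.0% in the last. At an unadjusted p under 0.05 there were 2 members in BMBs (Rab27b and Vamp7), 0 in BMEos, 1 for the difference (Vamp7) and 1 over the 5 settings (Rab27b). The methods' t-test called 0 of all genes tested in BMBs, in BMEos and over the 5 settings, Slpi included, so its 0 members there say nothing about the members. Rab27b differed by -0.61 in unstimulated BMBs, -0.38 in BMBs with IgE, 0.03 in mast cells, and -0.22 and -0.16 in BMEos, where it was below background. In BMBs that is -0.50 (95% interval -0.74 to -0.25, adjusted p = 0.375), lower in both pairs, although the B6 and Slpi-/- signals overlapped. Vamp7 differed by -0.54 and -0.18 in the BMB pairs, 0.36 in mast cells, and 0.05 and 0.20 in BMEos, and its fitted difference in BMBs was -0.36 (95% interval -0.65 to -0.07, adjusted p = 0.628). The other 8 members differed by at most 0.25 in any of the 5 pairs. Over the 5 settings their 95% intervals stayed between -0.24 and 0.22, which leaves room for differences of that size.

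**Figure D5:**
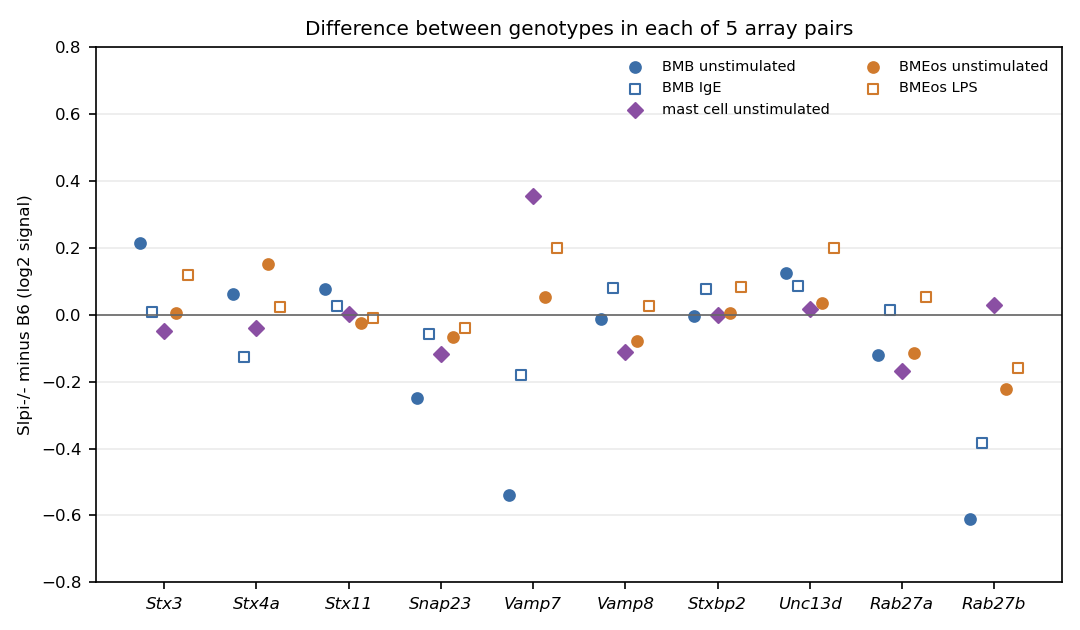
Slpi-/- minus B6 difference in log2 signal (y axis) of each member (x axis) in the 5 pairs of arrays, marked by cell type and stimulus. Most points lie within 0.25 of 0, and Rab27b (-0.61) and Vamp7 (-0.54) are lowest in unstimulated BMBs.

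Rab27b had the widest range of the members, and the 3 genes whose signals followed it most closely over the 10 arrays were Stk39 (Pearson r = 0.998), Mir674 (0.996) and Plscr1 (0.996). Stk39, a kinase gene, had 7.43 to 8.28 in BMBs, 8.54 and 8.62 in mast cells and 4.79 to 5.29 in BMEos. Stk39 and Rab27b were both below background on the BMEos arrays, so each r of Rab27b rests in part on background signal. The 10 arrays fall into 3 cell types, so these values describe mainly the order of the cell types. Among the members, Stxbp2 ran opposite to Rab27b (r = -0.980) and Snap23 ran with Rab27a (r = 0.921) over the same 10 arrays.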

How the data were processed

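The 10 arrays were Affymetrix GeneChip Mouse Gene 1.0 ST. The deposited values are log2 signals that the authors made with RMA in the affy package, as the submitters' processing notes name it. They were used as deposited, and differences are relative to the bulk of genes. Of 34760 probe sets, 21640 carry 1 gene symbol, and a gene was represented by its probe set with the highest mean. A gene entered a test when it exceeded the 95th percentile of 1027 olfactory receptor genes on at least 1 array, which all 10 members did (Rab27b through the BMB and mast cell arrays).

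Tests used limma 3.58.1 in R 4.3.3 (lmFit, eBayes, Benjamini-Hochberg adjustment over all genes tested, threshold 0.05). The 6 unstimulated arrays were fitted with cell type and genotype (12998 genes, 2 residual and 4.75 prior degrees of freedom). The 10 arrays were fitted with cell type and genotype means, IgE and LPS terms (13571 genes, 2 residual and 4.48 prior degrees of freedom), and with setting blocks for genotype (4 residual degrees of freedom). The number of arrays limits the precision. The fits were tested on simulated data. Sequences are from RefSeq (GRCm38.p6).

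Alternatives were median centring, quantile normalization of the deposited values, averaging over probe sets, the 99th percentile or no filter, a variance trend, all 10 arrays or no genotype block for the cell types, the arrays of 1 cell type alone, no mast cells, each array left out, and the methods' paired t-test. The members and gene lists were chosen with earlier results of these data known. The genes named beside the members were the highest and lowest called in each list and comparison, except Sytl2 and Sytl3. A gene not above background on both arrays of a group was given as a lower bound, the mean of the brighter group over the mean background of the dimmer one. Figures used matplotlib 3.10.9 (Python 3.11.15).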

Additional observations from a re-analysis of the deposited data

How the results depend on the processing

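No difference of a member that passed changed direction under any alternative. The number of members that passed for BMBs against mast cells, BMEos against mast cells, BMEos against BMBs, IgE and LPS (7, 7, 5, 5 and 3, the last with Rab27b, which is below background in BMEos) was 0 in each under the methods' t-test, which estimates the spread from 2 pairs of arrays alone and called 0, 1, 0, 0 and 0 of all genes. With IgE 3 members passed without a filter, 6 under the 99th percentile filter or quantile normalization (adding Stx4a) and 7 under a variance trend (adding Stx4a and Stxbp2). In BMEos against BMBs 7 passed under the 99th percentile filter, a variance trend or all 10 arrays (adding Stx4a and Unc13d), and 6 under quantile normalization. For LPS against IgE, 2 members passed under quantile normalization (Snap23 with Stx11) and 2 under a variance trend (Rab27a with Stx11), against 1. Quantile normalization also lost Stxbp2 in BMBs and Vamp7 in BMEos against mast cells. The cause of these changes was not tested.

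Leaving out 1 array at a time gave 4 to 5 members and 3418 to 4367 genes for BMBs against mast cells, 6 to 7 and 4932 to 6950 for BMEos against mast cells, 3 to 6 and 3432 to 5154 for BMEos against BMBs, 0 to 5 and 1109 to 3094 for IgE, 0 to 3 and 1531 to 4103 for LPS, and 1 member and 1590 to 3123 genes for LPS against IgE.

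For genotype 0 members passed under every alternative. The genes called in BMBs (1) became 9 with a variance trend, 0 with the t-test and 1 to 15 with 1 array left out. In BMEos (1) they became 6 with a variance trend, and 0 under quantile normalization, no filter, the t-test or the 4 BMEos arrays alone, and 0 to 1 with 1 array left out, as for the difference between those effects. Over the 5 settings (0) they became 1 with median centring or the 99th percentile filter, 2 with quantile normalization, a variance trend or no mast cells, and 0 to 2 with 1 array left out. With 1 array a condition, the intervals given are those of single genes before adjustment. They do not set the size of difference that could pass. For genotype in BMBs, the interval of Rab27b (-0.74 to -0.25) lay below 0, yet its limma adjusted p was 0.375.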
